A study of Mus musculus with 60 samples.

Results

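TRAV17, TRAV19 and TRAV21-DV12 are 3 variable (V) segments of the mouse T cell receptor (TCR) alpha chain that lie close to the joining (J) segments on chromosome 14. They were followed here in donor T cells of allogeneic hematopoietic cell transplantation (HCT), and they are 3 of the 109 V segments named in each of the 2 TCR alpha tables. The members were every listed clonotype with one of these V segments, a clonotype being defined by its V segment, its J segment and the amino acids of its CDR3. This gave 2841 of 62533 clonotypes in the CD4 table and 1760 of 59365 in the CD8 table. TRAV17 had 725 clonotypes in CD4 and 548 in CD8, TRAV19 had 778 and 575, and TRAV21-DV12 had 1338 and 637.

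Donor T cells came from C57BL/6-background mice that were wild type (WT), STAT3ko (Stat3 fl/fl with CD4-Cre) or STAT3koPD-1ko (Stat3 fl/fl with CD4-Cre on a PD-1-/- background, lacking both proteins). CD4-Cre acts from the thymus onward, so the STAT3 deletion preceded the transfer. The ages of the animals were not given in the sources used here. CD90.2+ donor T cells of each genotype were transferred with T cell-depleted bone marrow of WT C57BL/6 mice into lethally irradiated BALB/c recipients, so all day 6 groups shared the irradiation, the bone marrow and the major histocompatibility mismatch. Each table held 3 spleen libraries labelled before HCT, 1 per genotype, and 12 libraries from day 6, with 2 of liver and 2 of gut for each genotype. Each day 6 library pooled lymphocytes of 3 recipients, sorted as donor H-2Kb+ TCR beta+ CD4+ or CD8+ cells. The tables list TCR segments only, so the labelled tissue and cell type could not be checked against marker genes.

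An alpha chain gene is made in the thymus by joining 1 V segment to 1 of many J segments. The TRAJ numbers fall along the locus, from the V side to the constant region. A first join deletes what lies between the chosen segments, and the same allele can rearrange again with a V segment further upstream and a J segment further downstream until selection ends the process. V segments near the J array are therefore known to be joined early, and mainly to J segments at the V side. TRAV21-DV12 can also be joined in TCR delta chains, as the DV in its name says.

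In the GENCODE M21 annotation of GRCm38 (mm10), TRAV17 lies at chr14:53806639-53807115, TRAV19 at chr14:53845234-53845827 and TRAV21-DV12 at chr14:53875984-53876752, all on the plus strand. Each is a TR_V_gene of a leader exon and a V exon. Of 128 TRAV genes and pseudogenes in the annotation, TRAV17 was the 7th from the J side, TRAV19 the 5th and TRAV21-DV12 the 3rd, at 348, 309 and 278 kb from the first annotated TRAJ segment. They were not the only segments there. TRAV18 lies between TRAV17 and TRAV19, the pseudogene TRAV20 lies between TRAV19 and TRAV21-DV12, and the pseudogene TRAV22 and the gene TRAV23 lie between TRAV21-DV12 and the J array. The files listed TRAV18, TRAV20 and TRAV23 at means of 0.0247%, 0.0216% and 0.000445% of the CD4 frequency, and at 0.00544%, 0.0170% and 0.00112% of the CD8 frequency. The members were thus the only 3 segments of this stretch above 0.1% of the listed frequency.

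The end of each germline V segment is shown because it opens the CDR3, the loop that spans the joint. Sequences run 5′ to 3′ and come from the GENCODE M21 transcripts, and capitals mark the bases from the conserved cysteine codon onward, which belong to the CDR3. The stretches printed are chr14:53807090-53807115 for TRAV17, chr14:53845803-53845827 for TRAV19 and chr14:53876725-53876752 for TRAV21-DV12, all on the plus strand.
TRAV17: gccaagtacttcTGTGCACTGGAGGG
TRAV19: gcagtgtacctcTGCGCAGCAGGTG
TRAV21-DV12: gctgtgtaccacTGTATCCTGAGAGTAG
TRAV17 could give up to 14 germline bases to the CDR3, TRAV19 up to 13 and TRAV21-DV12 up to 16. The first 9 of them were intact in 93.9% of the TRAV17, 86.6% of the TRAV19 and 87.6% of the TRAV21-DV12 clonotypes of the CD4 table. In CD8 the shares were 92.0%, 85.7% and 92.5%. The first 12 bases were kept less often, in 74.6%, 49.0% and 70.8% of the CD4 clonotypes, and least in TRAV19. These shares rest on the single base sequence listed for each clonotype.

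The values behind all results are fractions of the reads of a library. The listed clonotypes summed to between 81.6% and 99.1% of a CD4 library and between 79.5% and 99.1% of a CD8 library, lowest in the gut libraries numbered 2, and the depth in reads is unknown. The number of listed clonotypes with a member V segment was between 262 and 1161 in a CD4 library and between 203 and 687 in a CD8 library. Among the members' clonotypes, the spleen library overlapped liver replicate 1 of its own genotype by 47.2% to 55.4% in CD4 and 36.9% to 52.4% in CD8, as the sum of the smaller of the 2 shares. The overlap with liver replicate 1 of another genotype was 10.8% to 16.9% and 3.67% to 10.2%, and the overlap with liver replicate 2 of the same genotype was 11.3% to 16.5% and 5.54% to 9.43%. Over all clonotypes the overlap of spleen with liver replicate 1 was 48.9% to 56.9% in CD4 and 45.9% to 58.6% in CD8 for the same genotype, and 16.1% to 23.7% and 14.1% to 19.5% for another genotype. Among the members, gut replicate 1 overlapped liver of its genotype by 29.4% to 42.9% in CD4 and 27.5% to 42.8% in CD8. For another genotype this was 18.3% to 26.8% and 8.86% to 17.8%. Gut replicate 2 overlapped its own by 15.1% to 26.5% and 8.45% to 16.0%, and another by 14.3% to 22.5% and 7.82% to 17.4%. Over all clonotypes the own genotype likewise stood apart for gut replicate 1 and not for gut replicate 2. The comparison of day 6 with cells before HCT used all libraries and is also given without liver replicate 1.

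The members were joined to J segments of higher number than the pooled other V segments. The mean TRAJ number, weighted by frequency and averaged over the 3 genotypes at day 6, was 45.4 ± 3.15 (SD, n = 3 genotype means) for TRAV17 in CD4 cells. It was 49.5 ± 0.482 for TRAV19 and 50.03 ± 0.967 for TRAV21-DV12. All V segments other than these 3 had a mean of 29.0 ± 1.02. In CD8 cells the means were 43.2 ± 0.929 for TRAV17, 48.3 ± 0.225 for TRAV19 and 49.1 ± 1.21 for TRAV21-DV12, against 28.3 ± 0.560 for all other V segments.

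**Figure D1:**
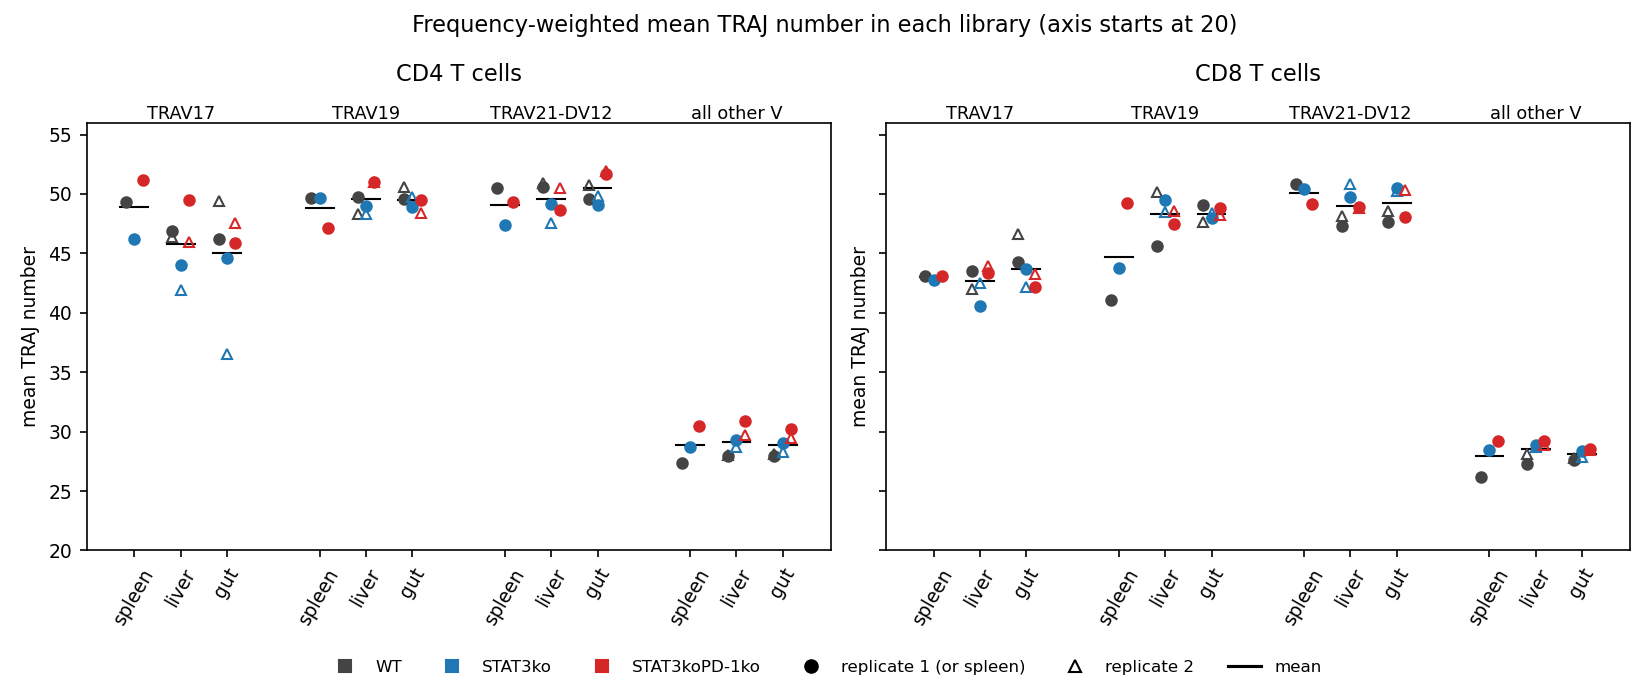
Mean TRAJ number, weighted by clonotype frequency, of each member and of all other V segments in each of the 15 CD4 and 15 CD8 libraries. Points are libraries coloured by genotype, circles are replicate 1 or spleen, open triangles are replicate 2, and bars are means of a tissue. The highest library of all other V segments was at 30.9, and the lowest of the members was at 36.5.

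The difference held in every library. In CD4 cells the mean TRAJ number of TRAV17 exceeded that of all V segments but TRAV17 by 7.28 at the lowest, 17.2 at the median and 21.4 at the highest of the 15 libraries. For TRAV19 the difference was 15.8 at the lowest, 19.8 at the median and 22.1 at the highest, and for TRAV21-DV12 it was 17.2, 20.8 and 22.7. Each member thus lay above the pooled value of the other V segments in every CD4 library, while single other segments, described further on, reached the level of the members. TRAV19 lay above TRAV21-DV12 in 4 of 15 libraries and above TRAV17 in 14 of 15. In CD8 cells the lowest differences were 11.4 for TRAV17, 14.7 for TRAV19 and 19.2 for TRAV21-DV12, and the highest were 18.7, 21.9 and 24.4, so each member was again above the pooled value in every library.

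The size of the difference was tested with limma over all segments whose mean usage reached 0.5%, with 1 value per genotype. In CD4, TRAV17 was higher by 15.7 ± 0.689 (SE) TRAJ numbers, TRAV19 by 20.1 ± 0.554 and TRAV21-DV12 by 20.5 ± 0.565, with Benjamini-Hochberg adjusted p at most 3.59e-22. All 3 passed, but so did most segments: 85.1% of the 47 tested differed from the other V segments, 34.0% upward and 51.1% downward. A call therefore says little about the members. TRAV21-DV12 and TRAV19 had the largest and next largest of the 47 differences. TRAV17 was the 4th, behind TRAV14-3 at 16.6 ± 0.441 (SD), a segment 391 kb from the J array, and the order of these last 2 was within the spread of TRAV17 (SD 3.18). The other 44 segments ranged from −9.39 to 16.6, with a median of −1.75.

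In CD8, TRAV19 was higher by 19.8 ± 0.498 (SE) and TRAV17 by 14.6 ± 0.498, the largest and next largest of the 41 differences tested (limma, adjusted p at most 7.14e-44). Of the 41 segments 90.2% passed, 36.6% upward and 53.7% downward. TRAV5-4, at 14.1 ± 0.961 (SD), differed from TRAV17 by less than the spread between genotypes. TRAV21-DV12 had a mean usage of 0.489% in CD8 and so fell just under the limit of 0.5%. Without that limit its difference was 20.5 ± 0.619 (SE, adjusted p = 6.88e-06 with limma over 98 segments, of which 82.7% passed and 28.6% passed upward). These very small p-values come from limma's sharing of the spread across segments. An exact sign-flip test on 3 genotype means alone cannot go below 0.25.

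**Figure D2:**
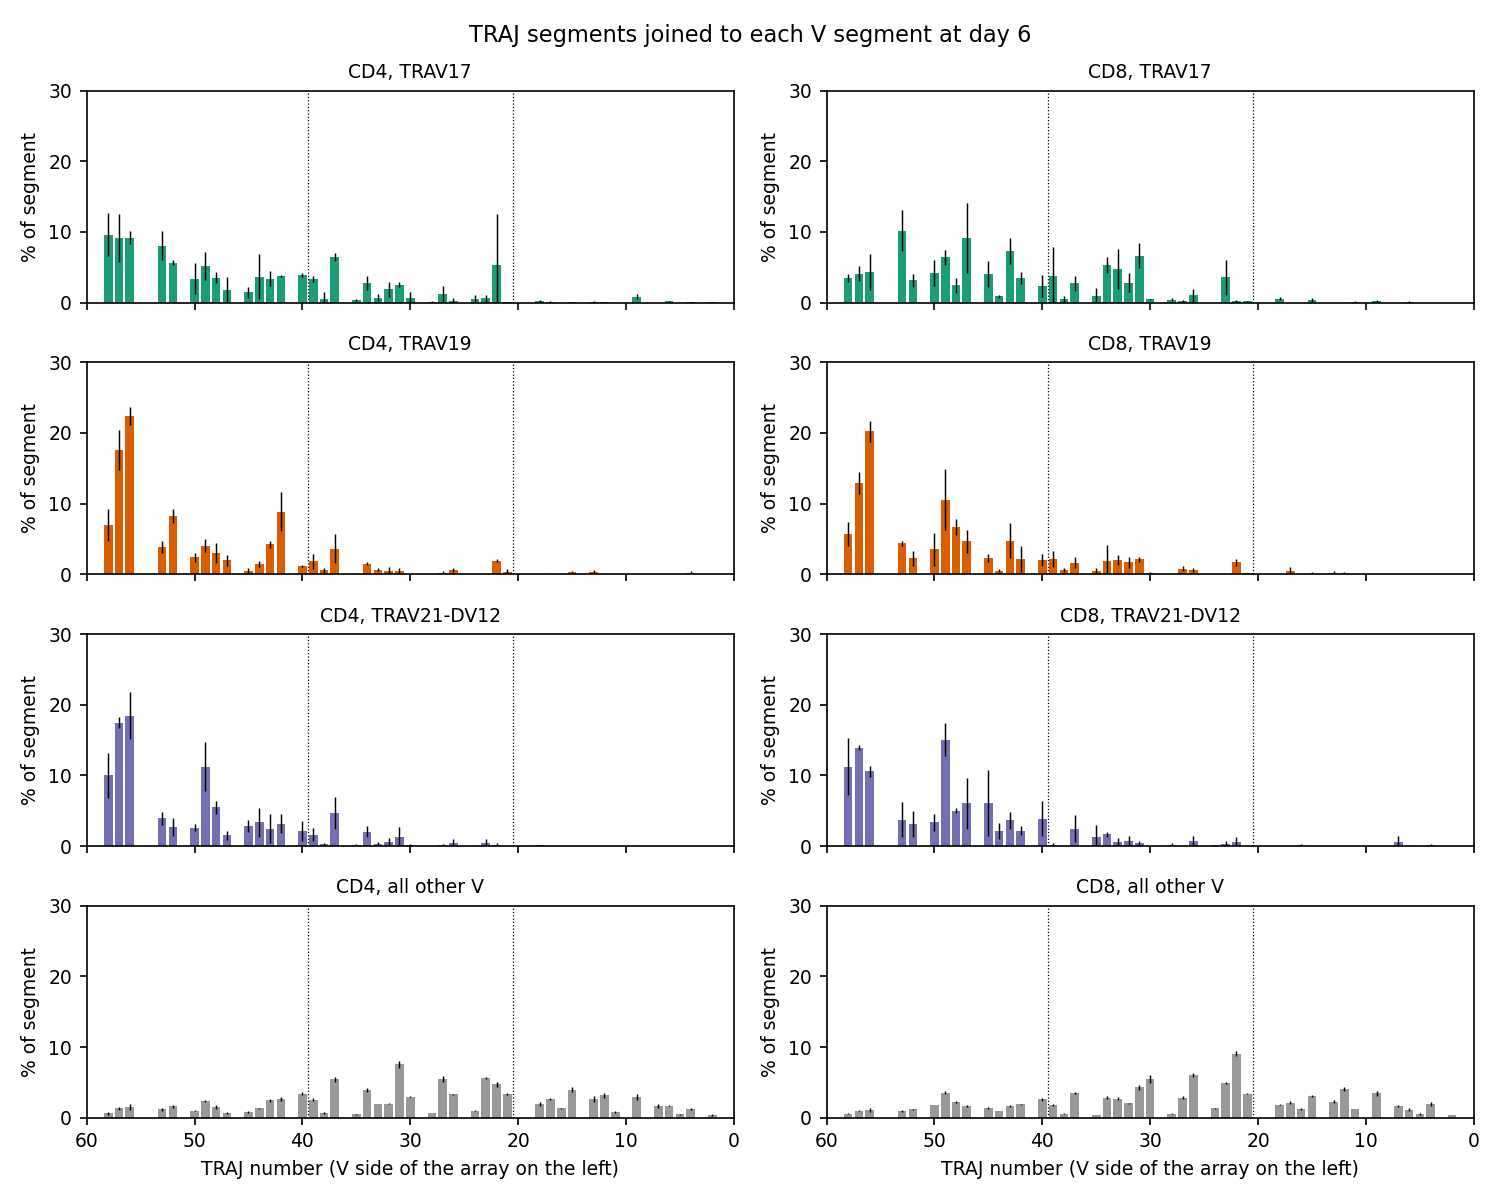
Share of each TRAJ segment in the frequency of each member and of all other V segments, averaged over the day 6 libraries of the 3 genotypes. Bars are means, lines are SD over 3 genotype means, and dotted lines bound the V-side, middle and C-side bands. The members fill the V side, with 65.3% to 90.1% of their frequency at TRAJ40 and above against 22.8% for all other V.

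By bands of the array, TRAJ40 and above on the V side took 71.5% ± 11.1 (SD, n = 3 genotype means) of TRAV17, 86.6% ± 4.51 of TRAV19 and 87.4% ± 5.20 of TRAV21-DV12 in CD4 cells. The same band took 22.8% ± 2.44 of all other V segments. In CD8 cells it took 65.3% ± 6.34, 82.8% ± 2.52 and 90.1% ± 2.65 of the 3 members and 22.8% ± 1.05 of the rest. TRAJ20 and below, on the constant region side, took only 1.47% ± 0.334 of TRAV17, 1.03% ± 0.160 of TRAV19 and 0.243% ± 0.0905 of TRAV21-DV12 in CD4 cells, against 25.1% ± 2.18 of the rest. In CD8 cells the C-side shares were 1.23% ± 0.697, 0.972% ± 0.885 and 0.809% ± 0.605, against 25.2% ± 1.66. The members were thus nearly empty of the J segments at the constant region side.

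The same joint can be read from the J side. The members together made up 4.33% ± 0.709 (SD, n = 3) of the CD4 frequency at day 6, but 25.4% ± 0.593 of the frequency with TRAJ50 and above, 14.2% ± 1.42 of that with TRAJ40 and above, and 0.157% ± 0.0467 of that with TRAJ20 and below. Over single CD4 libraries the share of the TRAJ50 band was between 21.2% and 30.6%. In CD8 cells they made up 1.89% ± 0.238 of all, 10.9% ± 0.894 of the TRAJ50 band, 6.27% ± 0.522 of the TRAJ40 band and 0.0726% ± 0.0238 of the C-side band. The members thus took a larger share of the V-side end than of the whole in both cell types.

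The leading J segments of the members were largely shared in CD4, where TRAJ56, TRAJ57 and TRAJ58 were among the first 5 of each. TRAV19 used TRAJ56 most, at 22.4% ± 1.29 (SD, n = 3 genotype means) in CD4 and 20.2% ± 1.44 in CD8. Its next in CD4 were TRAJ57 at 17.6% ± 2.79, TRAJ42 at 8.87% ± 2.78, TRAJ52 at 8.25% ± 1.04 and TRAJ58 at 6.93% ± 2.24. In CD8 they were TRAJ57 at 12.9% ± 1.56, TRAJ49 at 10.6% ± 4.35, TRAJ48 at 6.70% ± 1.15 and TRAJ58 at 5.69% ± 1.74. TRAJ42 was among the first 5 in CD4 and not in CD8.

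TRAV21-DV12 spread over the same end of the array. In CD4 it used TRAJ56 at 18.5% ± 3.31 and TRAJ57 at 17.5% ± 0.726, followed by TRAJ49 at 11.2% ± 3.42, TRAJ58 at 10.01% ± 3.18 and TRAJ48 at 5.49% ± 0.904. In CD8 TRAJ49 led at 15.1% ± 2.38, followed by TRAJ57 at 13.9% ± 0.359, TRAJ58 at 11.2% ± 4.06, TRAJ56 at 10.6% ± 0.764 and TRAJ45 at 6.07% ± 4.67. In all other V segments TRAJ56, TRAJ57 and TRAJ58 took 1.59% ± 0.432, 1.36% ± 0.233 and 0.620% ± 0.176 of the CD4 frequency.

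TRAV17 had the flattest profile. Its leading segments in CD4 were TRAJ58 at 9.61% ± 3.09, TRAJ56 at 9.18% ± 0.883, TRAJ57 at 9.11% ± 3.36, TRAJ53 at 8.02% ± 2.03 and TRAJ37 at 6.47% ± 0.581, and the first 3 did not differ beyond their spread. In CD8 the order was TRAJ53 at 10.1% ± 2.90, TRAJ47 at 9.12% ± 5.01, TRAJ43 at 7.29% ± 1.83, TRAJ31 at 6.61% ± 1.75 and TRAJ49 at 6.40% ± 1.02. Its middle band, TRAJ21 to TRAJ39, was the fullest of the members at 26.99% ± 10.8 in CD4 and 33.4% ± 6.89 in CD8.

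**Figure D3:**
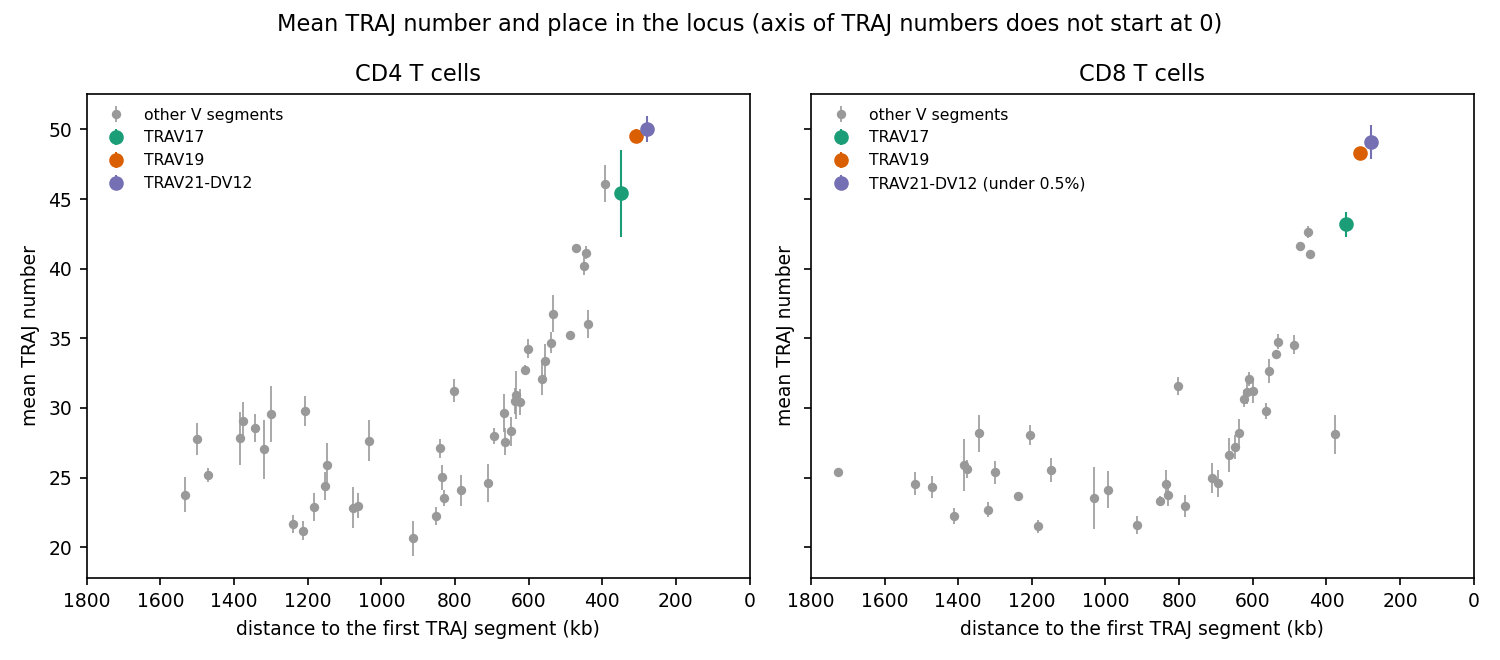
Mean TRAJ number at day 6 of each V segment whose mean usage reached 0.5% (and of TRAV21-DV12 in CD8, under that limit) against its distance in kb from the first annotated TRAJ segment. Points are means and lines SD over 3 genotype means. The members are the points nearest to the J array and among the highest of each panel.

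Along the locus the mean TRAJ number fell with distance from the J array. Spearman's rho between distance and mean TRAJ number was −0.77 over 47 segments in CD4 and −0.75 over 41 in CD8, and −0.72 and −0.71 over the 44 and 39 segments left without the members. This is a description across segments of the same libraries, which are not independent. The rare neighbour TRAV18 was high too, with a mean TRAJ number of 50.9 ± 2.20 (SD, n = 3) over 69 clonotypes in CD4. TRAV20 had 41.2 ± 2.09 over 51 clonotypes, but its day 6 libraries ran from 29.6 to 50.4, and WT gut replicate 2 held none. TRAV23 had only 4 clonotypes in CD4 and is not read. At the far end, TRAV1 and TRAV2 had means of 22.0 ± 1.29 and 21.4 ± 2.28 in CD4 and 25.4 ± 0.290 and 23.6 ± 0.571 in CD8. TRAV4-1, at 1547 kb near the same end and named after its values were seen, went against the trend with means of 48.3 ± 0.320 over 345 clonotypes in CD4 and 47.0 ± 0.472 over 193 in CD8, at usages of 0.164% and 0.119%. These were as high as those of the members, so a high mean TRAJ number was not particular to this end of the V array. TRAV3-1, also at the far end, had only 11 and 9 clonotypes and is not read. TRAV3-4, at 377 kb the next used segment upstream in CD8, went against the trend with a mean of 28.1 ± 1.42 in CD8 and 30.2 ± 0.544 in CD4, and it was named after its values were seen. TRAV3-4 and TRAV4-1 belong to V families with several copies, and how reads were assigned among those copies was not tested.

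The level of the members was moderate. In CD4 cells TRAV19 made up 1.89% of the listed frequency as the mean of 15 libraries, the 21st of 109 segments. TRAV21-DV12 made up 1.65% (24th) and TRAV17 0.822% (33rd). TRAV19 was above TRAV21-DV12 in 9 of 15 libraries, so these neighbours in the order did not differ beyond their spread, while TRAV21-DV12 was above TRAV17 in 15 of 15. In CD8 cells TRAV19 stood at 0.868% (26th), TRAV17 at 0.512% (41st) and TRAV21-DV12 at 0.489% (42nd). TRAV19 was above TRAV21-DV12 in 15 of 15 CD8 libraries, whereas TRAV21-DV12 was above TRAV17 in 8 of 15. A fraction of reads cannot tell more cells from more receptor transcripts per cell.

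TRAV21-DV12 was the member that differed most between CD4 and CD8. It ranged from 1.09% to 2.78% in the CD4 libraries and from 0.241% to 0.747% in the CD8 libraries, without overlap, a ratio of means of 3.37. Of 45 segments whose mean over both tables reached 0.5%, 26.7% likewise lay higher in CD4 with no overlap. TRAV19 was higher in the CD4 library of the same name in 15 of 15 pairs, but its ranges overlapped (1.01% to 3.14% and 0.643% to 1.26%). TRAV17 was higher in CD4 in 13 of 15 pairs. The tables were joined separately by the authors, so these levels stand side by side with no test.

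**Figure D4:**
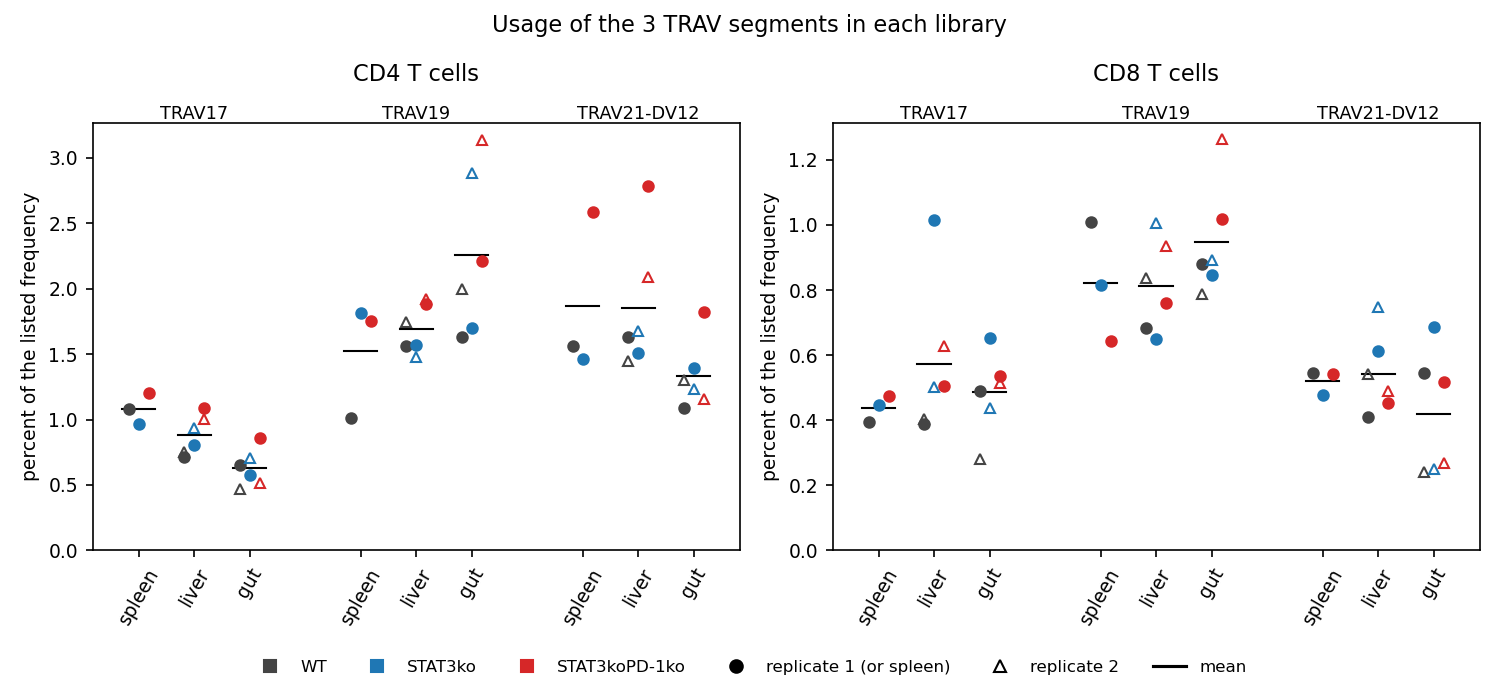
Usage of each member, as percent of the listed frequency, in each of the 15 CD4 and 15 CD8 libraries (the scales of the panels differ). Points are libraries coloured by genotype, circles are replicate 1 or spleen, open triangles are replicate 2, and bars are means of a tissue. In CD4, TRAV17 and TRAV21-DV12 were lower in gut than in liver on average, while TRAV19 was highest in 2 gut libraries.

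The comparison of gut with liver asks whether the donor cells that reached the 2 target tissues used different V segments. In CD4 cells TRAV17 was lower in gut than in liver. Its usage in the 6 liver libraries was 0.718% at the lowest, 0.872% at the median and 1.09% at the highest, and in the 6 gut libraries 0.473%, 0.613% and 0.859%. The gut values lay lower but overlapped the liver values. On the log2(percent + 0.1) scale, which understates the change of rare segments, TRAV17 fell by 0.44 ± 0.126 (SE) (limma, adjusted p = 0.0363, n = 12 libraries). The sources used here do not say whether libraries of 1 group came from separate donor mice, so p-values measure the spread between these libraries. Gut replicate 1 also shared more of the members' frequency with liver of its own genotype than with liver of another, as given above.

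TRAV21-DV12 also fell in CD4 gut. It was at 1.45%, 1.65% and 2.78% (lowest, median and highest) in liver and at 1.09%, 1.27% and 1.82% in gut, again with overlap. The difference was −0.43 ± 0.131 (SE) on the same scale (limma, adjusted p = 0.0363). TRAV19 lay the other way, at 1.48%, 1.66% and 1.92% in liver and 1.63%, 2.10% and 3.14% in gut, but the difference of 0.36 ± 0.138 did not pass (limma, adjusted p = 0.0973). It passed with the replicate number as a block, at the same difference (limma, adjusted p = 0.0433). The study's methods name 2 batches, but the sources used here do not say whether the numbers mark them. The highest TRAV19 values, 2.88% and 3.14%, were those of the STAT3ko and STAT3koPD-1ko gut libraries numbered 2. Without the block 2 of the 3 members were thus called, against 14.9% of the 47 segments tested (12.8% downward).

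These calls were fragile. Leaving out single libraries gave adjusted p up to 0.106. The call of TRAV17 was lost in 8 of 12 cases and kept without any of the 3 gut libraries numbered 1 or STAT3ko gut replicate 2. That of TRAV21-DV12 was lost in 9 of 12 and kept without STAT3ko gut replicate 1, STAT3koPD-1ko gut replicate 1 or WT gut replicate 2. With each listed clonotype counted once, the difference of TRAV17 was −0.033 (adjusted p = 0.632) and that of TRAV21-DV12 was −0.25 (adjusted p = 0.229). TRAV17 made up 1.12% ± 0.0886 (SD, n = 6) of the listed CD4 clonotypes of liver and 1.097% ± 0.152 of those of gut. This share of clonotypes did not differ beyond the spread, while the usage was lower in gut with overlap. The share of TRAV21-DV12 was 1.79% ± 0.109 of the liver and 1.54% ± 0.420 of the gut clonotypes.

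The largest clonotype of each V segment in each library was also left out. Without these clonotypes, an alternative chosen after the data were seen, the CD4 differences were −0.49 for TRAV17 (adjusted p = 0.0211), −0.49 for TRAV21-DV12 (adjusted p = 0.0211) and 0.41 for TRAV19 (adjusted p = 0.0413), all with limma. Within the libraries numbered 1 alone the differences of TRAV17, TRAV21-DV12 and TRAV19 were −0.29, −0.41 and 0.13, and within those numbered 2 alone they were −0.59, −0.45 and 0.59.

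In CD8 cells no member passed between gut and liver, where 12.2% of the 41 segments tested did (7.32% upward and 4.88% downward). TRAV17 was at 0.388%, 0.504% and 1.02% (lowest, median and highest) in liver and 0.282%, 0.501% and 0.654% in gut, a difference of −0.17 ± 0.152 (limma, adjusted p = 0.462). TRAV19 was at 0.648%, 0.798% and 1.00% in liver and 0.788%, 0.886% and 1.26% in gut, a difference of 0.20 ± 0.110 (adjusted p = 0.18).

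TRAV21-DV12, under the usage limit in CD8, split by the number of the gut library. It stood at 0.241%, 0.251% and 0.269% in the WT, STAT3ko and STAT3koPD-1ko gut libraries numbered 2 and at 0.546%, 0.685% and 0.517% in those numbered 1, with no overlap. Of the 41 segments over the limit, 12.2% likewise lay lower in the gut libraries numbered 2 with no overlap and 14.6% lay higher. The 6 liver libraries lay between 0.411% and 0.747%. The gut libraries numbered 2 are also those with the lowest listed share, 79.5% to 80.1% of their reads, and the part of this in the result was not tested. Without the usage limit the gut difference was −0.37 ± 0.232 (limma, adjusted p = 0.437 over 109 segments, of which 3.67% passed).

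Genotypes were compared at day 6 to ask whether loss of STAT3, a transcription factor of cytokine signalling, or the further loss of PD-1, an inhibitory receptor, changed V usage. No member passed in either comparison or cell type. In CD4 0.00% of the 47 segments passed in either, and at an unadjusted p under 0.05 there were 0 segments between STAT3ko and WT and 2 between STAT3koPD-1ko and STAT3ko. In CD8 0.00% of 41 segments passed for STAT3ko against WT, with 5 at an unadjusted p under 0.05, and 2.44% for STAT3koPD-1ko against STAT3ko.

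Among the members, the widest CD4 difference was that of TRAV21-DV12 between the knockouts. In the STAT3koPD-1ko libraries it was at 2.78% and 2.09% in liver and 1.82% and 1.16% in gut, and in the STAT3ko libraries at 1.505% and 1.68% in liver and 1.40% and 1.23% in gut. The first 3 lay above every STAT3ko value and the last lay under all of them, and the difference of 0.36 ± 0.161 did not pass (limma, adjusted p = 0.91). The STAT3koPD-1ko spleen library, labelled before HCT, was also high, at 2.58%, against 1.57% in WT and 1.46% in STAT3ko.

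The 3 members together made up 3.37% to 3.95% of the 4 WT, 3.67% to 4.82% of the 4 STAT3ko and 4.81% to 5.76% of the 4 STAT3koPD-1ko CD4 libraries of day 6, given as a description with no test. The STAT3koPD-1ko and WT values did not overlap, while those of STAT3ko overlapped both. No single segment of the 47 over the usage limit (0.00%) lay higher in STAT3koPD-1ko than in WT with no overlap, the members included, and a sum of 3 segments is not directly comparable with single ones. In the spleen libraries the order was the same, at 3.65% in WT, 4.23% in STAT3ko and 5.53% in STAT3koPD-1ko, but each spleen library shared 47.2% to 55.4% of the members' frequency with liver replicate 1 of its genotype, so this order is not separate from that at day 6. The mean TRAJ number of all other V segments put the 3 genotype groups of CD4 in the same order. It was 27.9 to 28.1 in the WT, 28.3 to 29.3 in the STAT3ko and 29.5 to 30.9 in the STAT3koPD-1ko libraries of day 6. Within STAT3ko the libraries did not follow this order, as gut replicate 2 had the highest sum, 4.82%, and the lowest mean, 28.3. In CD8 the members together made up 1.31% to 1.91% in WT, 1.58% to 2.28% in STAT3ko and 1.72% to 2.07% in STAT3koPD-1ko, which overlapped.

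In CD8, TRAV17 had its widest difference between STAT3ko and WT. It stood at 0.388% and 0.405% in WT liver and 0.489% and 0.282% in WT gut, and at 1.02% and 0.502% in STAT3ko liver and 0.654% and 0.439% in STAT3ko gut. The groups overlapped, and the difference of 0.57 ± 0.186 did not pass (limma, adjusted p = 0.161). The STAT3ko liver library numbered 1 stood highest, and 1 clonotype with TRAJ39 held 32.2% of its TRAV17 frequency. In the STAT3koPD-1ko libraries TRAV17 lay between 0.505% and 0.629%. Without STAT3ko liver replicate 1 the difference was 0.37, and with the largest clonotype of each segment taken out it was 0.45 (adjusted p = 0.248). TRAV21-DV12, fitted in CD8 without the usage limit, differed by 0.30 ± 0.284 between STAT3ko and WT (adjusted p = 0.909, where 0.917% of 109 segments passed, all downward) and by −0.29 ± 0.284 between STAT3koPD-1ko and STAT3ko (adjusted p = 0.93, where 0.00% passed).

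Gut and liver differences of the members did not differ between genotypes beyond the spread. Of the interaction terms of tissue and genotype, 0 of 47 in CD4 and 0 of 41 in CD8 passed, and the lowest adjusted p of a member was 0.854 for usage and 0.859 for the mean TRAJ number (limma). Each group held 2 libraries.

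Day 6 cells were compared with the spleen cells labelled before HCT across the transfer. All libraries from before HCT were of spleen and all day 6 libraries of liver or gut, so time after transfer and tissue cannot be told apart in this comparison. No member passed. For TRAV17 in CD4 the spleen libraries were at 1.08% in WT, 0.964% in STAT3ko and 1.20% in STAT3koPD-1ko, and the 12 day 6 libraries at 0.473%, 0.736% and 1.09% (lowest, median and highest). The difference of −0.49 ± 0.137 did not pass (limma, adjusted p = 0.0981), where 0.00% of 47 segments passed and 8 had an unadjusted p under 0.05. Without the liver libraries numbered 1, which share clonotypes with the spleen libraries, it was −0.48 (adjusted p = 0.246). Against gut alone, an alternative added after the data were seen, it was −0.71 (adjusted p = 0.0254). It also passed with clonotypes in at least 3 libraries, at −0.61 (adjusted p = 0.0114), and without STAT3ko gut replicate 2 (adjusted p = 0.0317). With clonotypes counted once it was 0.016 (adjusted p = 0.909).

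TRAV19 had spleen values of 1.01%, 1.81% and 1.75% (WT, STAT3ko and STAT3koPD-1ko) and a day 6 median of 1.82% in CD4, a difference of 0.36 ± 0.160 (limma, adjusted p = 0.232). TRAV21-DV12 had 1.57%, 1.46% and 2.58% in spleen and a day 6 median of 1.48%, a difference of −0.22 ± 0.144 (adjusted p = 0.309). In CD8, where 4.88% of 41 segments passed, the differences were 0.18 ± 0.162 for TRAV17 (adjusted p = 0.605) and 0.087 ± 0.144 for TRAV19 (adjusted p = 0.78). The spleen libraries of CD8 lay between 0.395% and 0.475% for TRAV17, between 0.643% and 1.01% for TRAV19 and between 0.478% and 0.545% for TRAV21-DV12, whose difference without the usage limit was −0.16 ± 0.244 (adjusted p = 0.841, where 0.917% passed).

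The J segments of the members were compared between gut and liver and between day 6 and spleen. No test between genotypes is given. In CD4 the TRAV17 mean of the day 6 libraries was 36.5 to 44.6 in STAT3ko, 46.2 to 49.4 in WT and 45.9 to 49.5 in STAT3koPD-1ko. Without the largest TRAV17 clonotype of each library it reached 47.3 in STAT3ko and was 45.2 to 48.5 in WT, so these overlapped. Other segments were not compared in this way. Between gut and liver the mean TRAJ number differed by −0.74 ± 1.24 (SE) for TRAV17, −0.097 ± 0.661 for TRAV19 and 0.91 ± 0.649 for TRAV21-DV12 in CD4, and by 1.05 ± 0.753 for TRAV17 and 0.050 ± 0.738 for TRAV19 in CD8. None passed (limma, adjusted p at least 0.518), and neither did any other segment, 0.00% of 47 and of 41, with 3 and 1 at an unadjusted p under 0.05. Without the usage limit TRAV21-DV12 in CD8 differed by 0.25 ± 0.588 (adjusted p = 0.85).

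Between day 6 and spleen the TRAV17 mean in CD4 differed by −3.51 ± 1.30 (limma, adjusted p = 0.103, where 2.13% of 47 segments passed). The spleen libraries were at 49.3, 46.2 and 51.2 (WT, STAT3ko, STAT3koPD-1ko), and the day 6 values reached down to 36.5 in the STAT3ko gut library numbered 2. In that library 1 clonotype with TRAJ22 held 42.7% of the TRAV17 frequency, and without it the mean was 47.3. With clonotypes counted once the difference was 0.071. In CD8 TRAV19 differed by 3.62 ± 1.19 (limma, adjusted p = 0.184, where 0.00% of 41 segments passed). Its spleen values were 41.1, 43.8 and 49.2 and its day 6 values lay between 45.6 and 50.2. Leaving out single libraries moved this difference between 1.92 and 5.92, and it passed without the STAT3koPD-1ko spleen library (adjusted p = 0.00266).

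Without the liver libraries numbered 1, the usage differences between day 6 and spleen were 0.37 for TRAV19 and −0.25 for TRAV21-DV12 in CD4, and 0.13 for TRAV17 and 0.18 for TRAV19 in CD8. The differences in mean TRAJ number were then −4.02 for TRAV17, 0.54 for TRAV19 and 0.996 for TRAV21-DV12 in CD4, and 0.27 for TRAV17 and 4.01 for TRAV19 in CD8. None of these passed (limma, adjusted p at least 0.0922).

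The clonotypes below are the most frequent and the most widely listed of each member, by mean fraction and by number of libraries above 0, and are shown because they carry the joints described above. Sequences are the CDR3 in 5′ to 3′ direction as deposited, and capitals mark the run from the first base that equals the germline V segment. Each clonotype is listed with a single base sequence. Library counts and means therefore belong to the clonotype as defined by its amino acids, not to the printed bases.
TRAV17 with TRAJ58, CD4: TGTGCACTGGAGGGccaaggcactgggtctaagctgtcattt
TRAV19 with TRAJ42, CD4: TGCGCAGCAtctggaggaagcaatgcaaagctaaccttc
TRAV21-DV12 with TRAJ56, CD4: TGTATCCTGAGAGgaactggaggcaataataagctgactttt
TRAV17 with TRAJ39, CD8: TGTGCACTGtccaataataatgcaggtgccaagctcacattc
TRAV17 with TRAJ31, CD8: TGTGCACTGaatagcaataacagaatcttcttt
TRAV19 with TRAJ56, CD8: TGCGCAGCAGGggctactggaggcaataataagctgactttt
TRAV21-DV12 with TRAJ57, CD8: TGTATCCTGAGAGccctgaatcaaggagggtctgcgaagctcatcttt
TRAV21-DV12 with TRAJ57, CD8, in more libraries: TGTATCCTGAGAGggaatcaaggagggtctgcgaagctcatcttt
The TRAV17 clonotype of CD4 kept all 14 germline bases. It was in 15 of 15 libraries at a mean of 0.0352% of the reads, highest in the STAT3koPD-1ko spleen library at 0.149%, with liver values of 0.00641% to 0.0736% and gut values of 0.00138% to 0.0441%. The TRAV19 clonotype, with 9 germline bases, had the highest mean of the 3, at 0.108%. It was between 0.0393% and 0.0667% in spleen, between 0.0589% and 0.431% in liver and between 0.0659% and 0.182% in gut, highest in WT liver replicate 2. The TRAV21-DV12 clonotype, with 13 germline bases, was in 15 of 15 libraries at a mean of 0.0483%, and 1 library, STAT3koPD-1ko gut replicate 1 at 0.379%, stood above the rest, whose highest was 0.0773%.

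In CD8 the most frequent clonotype was in all 15 libraries for TRAV19 but not for TRAV17 or TRAV21-DV12. The TRAV17 clonotype with TRAJ39 was in 7 of 15 libraries and reached 0.320% in STAT3ko liver replicate 1 and 0.0342% in the STAT3ko spleen library, and at most 0.00209% in gut. The TRAV17 clonotype with TRAJ31 was in 15 of 15, with a mean of 0.0239% and a highest value of 0.0472%. The TRAV19 clonotype with TRAJ56 was also in 15 of 15, at a mean of 0.0268%. It was highest in the STAT3koPD-1ko spleen library at 0.0895%. The 2 TRAV21-DV12 clonotypes were in 5 and 10 of 15 libraries, at means of 0.0108% and 0.00594%. No TRAV21-DV12 clonotype was thus in every CD8 library.

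The clonotypes of the members were few per library, so that single ones weighed more than in the table as a whole. The largest clonotype held a median of 7.99% of the TRAV17, 7.22% of the TRAV19 and 7.07% of the TRAV21-DV12 frequency over the 12 CD4 libraries of day 6, and up to 42.7%, 26.0% and 22.5%. In CD8 the medians were 10.3%, 7.43% and 10.9%, and the highest 32.2%, 18.1% and 17.6%. The Shannon effective number of clonotypes, the number of equally frequent clonotypes with the same entropy, had medians of 75.9, 80.6 and 108 for TRAV17, TRAV19 and TRAV21-DV12 in CD4 and of 51.8, 65.0 and 51.1 in CD8.

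Sharing of clonotypes differed among the members. Of the TRAV19 clonotypes of CD4, 83 (10.7%) were above 0 in at least 10 of 15 libraries, and 15 were in all 15. The shares were 5.24% for TRAV17 and 3.36% for TRAV21-DV12, and 7.45% for all other V segments. In CD8 they were 3.48% for TRAV19, 3.65% for TRAV17 and 0.157% for TRAV21-DV12 (1 clonotype), against 6.93% for the rest. Of the TRAV21-DV12 clonotypes in CD8, 65.9% were in 2 or fewer libraries, against 48.3% of the rest. The usage of TRAV21-DV12 in CD8 was also the lowest of the members, and the part of usage in these shares was not tested.

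Between the cell types, 155 TRAV17 clonotypes were in both tables, 21.4% of those of CD4 and 28.3% of those of CD8. TRAV19 shared 173 (22.2% and 30.1%) and TRAV21-DV12 231 (17.3% and 36.3%), while all other V segments shared 11.8% and 12.3%. The mean CDR3 length, weighted by frequency, was 14.0 ± 0.101 (SD, n = 3 genotype means) residues for TRAV17, 13.7 ± 0.0219 for TRAV19 and 14.2 ± 0.149 for TRAV21-DV12 in CD4, against 13.4 ± 0.00130 for the rest. In CD8 the lengths were 13.8 ± 0.0379, 13.5 ± 0.108 and 14.5 ± 0.124, against 13.6 ± 0.0235. Among the members TRAV21-DV12 had the highest mean in both, but in CD4 its lead over TRAV17 was near the size of the SD. No other single segment was compared. No base lay between the V and J parts in 30.2% of the TRAV17, 21.3% of the TRAV19 and 25.7% of the TRAV21-DV12 clonotypes of CD4 and in 20.2% of the rest. This too rests on the single base sequence listed for each clonotype.

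The segments whose usage was most like that of a member over the 15 libraries were found by Pearson's r of log2(percent + 0.1), as a description of libraries that share tissue and genotype. In CD4 TRAV17 was most like TRAV21-DV12 (r = 0.78), itself a member, and TRAV5-1 (r = 0.73). TRAV21-DV12 was next most like TRAV6-6 (r = 0.71). TRAV19 was most like TRAV14-3 (r = 0.75) and TRAV7-5 (r = 0.64), and its r with TRAV17 was −0.44. Only segments over the usage limit were ranked, which leaves out TRAV21-DV12 in CD8, whose r with TRAV17 was 0.50. Of those ranked in CD8, TRAV17 was most like TRAV7-3 (r = 0.42) and TRAV13N-1 (r = 0.41), TRAV19 like TRAV10D (r = 0.68) and TRAV8D-1 (r = 0.58), and TRAV21-DV12 like TRAV1 (r = 0.63) and TRAV12D-2 (r = 0.56).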

How the data were processed

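TCR alpha transcripts of 15 CD4 and 15 CD8 libraries were analysed. The labels and the study's methods give a SMARTer mouse TCR a/b profiling kit, paired MiSeq reads, clonotype calls with miXCR and a join of libraries with VDJtools, and the labels name the build mm10. Each value the authors deposited is the fraction of a library's reads held by a clonotype found in at least 2 libraries of the join, so rarer clonotypes are not listed and depth in reads is unknown. The join may include libraries not analysed here: 85 CD4 and 64 CD8 clonotypes were at 0 in all 15 libraries of their table. The TCR beta tables were not used here.

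Alleles were dropped from V names. Usage is the sum of a segment's fractions over the library's listed total, in percent. Of 109 V segments in a table, those with a mean usage of at least 0.5% were tested (47 in CD4, 41 in CD8). TRAV21-DV12 in CD8 is under this limit and is given from the fit without it. The response was either log2(percent + 0.1) or the fraction-weighted mean TRAJ number, fitted with limma 3.58.1 (R 4.3.3) with tissue and genotype as terms, two-sided, with Benjamini-Hochberg adjustment within table and contrast at 0.05. Differences in TRAJ number from all other V segments used 1 mean per genotype. Tables were made with Python 3.11.15 and pandas 2.3.3. On simulated data with independent noise, 12 of 12 changed segments were recovered for each table, in usage and in TRAJ number alike. Each of these simulations had 1 false call in CD4 and 0 in CD8. The simulated usage changes were larger than the members' usage differences given here. Recovery of differences of that smaller size was not tested.

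The members, lists and tests were chosen with earlier results of these data known. Other segments are named by likeness of usage (the 2 highest r per member), as neighbours in the locus or as the far end of the V array, TRAJ segments as the 5 highest per member, and clonotypes as the most frequent and the most widely listed. Segments that come between the members in an order are named too. Alternatives were another pseudocount (0.01 or 0.5), no usage limit, undivided fractions, clonotypes in at least 3 libraries, clonotypes counted once, the replicate number as a block, other measures of the J segment and single libraries left out. Those with liver or gut alone, or usage without the largest clonotype, were added after the data were seen. All 109 V names matched GENCODE M21.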

Additional observations from a re-analysis of the deposited data

Results flagged for a closer look

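In CD4 cells, 1 library stood apart from the other 5 gut libraries in the mean TRAJ number of TRAV17. STAT3ko gut replicate 2 was at 36.5, and the nearest gut library was at 44.6, a gap of 0.632 of the whole range of the 6 libraries. In this library 1 TRAV17 clonotype with TRAJ22 held 42.7% of the TRAV17 frequency and 0.253% of the reads, and it was above 0 in 1 other library. Without that clonotype, taken out after its value was seen, the mean was 47.3. Of 24 groups of 6 libraries tested in this way 1 was picked out, and chance picks out about 1 group in 20.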

How the results depend on the processing

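The members' differences from all other V segments in TRAJ number kept their direction and call under each alternative run. TRAV21-DV12 in CD8 is not covered by this, as it was fitted only without the usage limit. The calls of usage between gut and liver in CD4 did not. TRAV21-DV12 was at −0.46 (adjusted p = 0.0518) with a pseudocount of 0.01 and at −0.32 (adjusted p = 0.116) with clonotypes in at least 3 libraries. Without the usage limit TRAV17 and TRAV21-DV12 were at −0.44 and −0.43 (adjusted p = 0.0983 for both), with clonotypes counted once at −0.033 and −0.25, and within libraries numbered 1 at −0.29 and −0.41, and none of these passed. Within libraries numbered 2 TRAV21-DV12 was at −0.45 (adjusted p = 0.0795). TRAV19 passed at 0.31 with a pseudocount of 0.5, at 0.59 within libraries numbered 2 and at 0.41 without the largest clonotypes. In CD8 TRAV17 was at 0.0056 with clonotypes counted once, against −0.17. All p are from limma, and beyond these constructions the cause was not tested.

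Leaving out 1 library gave −0.50 to −0.34 for TRAV17, 0.25 to 0.43 for TRAV19 (adjusted p = 0.0444 without STAT3ko gut replicate 1) and −0.47 to −0.32 for TRAV21-DV12 in CD4 gut minus liver.

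Counts of called segments moved more. For gut minus liver in CD4 (7 in the text) there were 3 with a pseudocount of 0.01, 0 without the usage limit, 4 with clonotypes in at least 3 libraries, 0 with clonotypes counted once, 0 within libraries numbered 1 and 11 within those numbered 2, and 1 to 9 without single libraries. In CD8 (5 in the text) there were 3 with clonotypes in at least 3 libraries, 3 counted once, 0 and 3 within numbers 1 and 2, and 2 to 7 without single libraries. For STAT3koPD-1ko minus STAT3ko 1 was called in CD4 within libraries numbered 2. In CD8 the 1 call became 0 with a pseudocount of 0.5, without the usage limit, undivided, counted once and within either number, and was 0 to 1 without single libraries. For STAT3ko minus WT in CD8 there was 1 without the usage limit and 0 to 1 without single libraries. For day 6 minus before HCT there were 3 in CD4 with clonotypes in at least 3 libraries, 3 with gut alone and 0 to 2 without single libraries. In CD8 there were 1 without the usage limit, 0 counted once, 1 with liver alone, 6 with gut alone, 4 without the largest clonotypes and 1 to 4 without single libraries. Segments that differed in TRAJ number from the rest were 74 of 97 in CD4 and 81 of 98 in CD8 without the usage limit, and 22 in CD8 with the 3 spleen libraries. For the mean TRAJ number between groups the counts lay between 0 and 1 in CD4 (0 counted once for day 6) and between 0 and 2 in CD8 without single libraries.

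Differences of members that had not passed changed sign in these cases. With clonotypes counted once, STAT3ko minus WT in CD4 was −0.060 for TRAV17 and −0.051 for TRAV21-DV12, STAT3koPD-1ko minus STAT3ko was −0.12 for TRAV21-DV12 in CD4 and 0.14 for TRAV17 in CD8, and day 6 minus before HCT was 0.016 for TRAV17. The mean TRAJ number then differed between gut and liver by 0.72 for TRAV17 in CD4 and −0.20 for TRAV19 in CD8, and between day 6 and spleen by 0.071 for TRAV17 and −0.68 for TRAV19. With clonotypes in at least 3 libraries TRAV21-DV12 was at −0.024 (STAT3ko minus WT) and the TRAV17 mean TRAJ number at 1.39 (gut minus liver), both in CD4. Within libraries numbered 2, STAT3koPD-1ko minus STAT3ko was −0.15 in CD4 and 0.23 in CD8 for TRAV17, and within those numbered 1 STAT3ko minus WT was −0.056 for TRAV19 in CD8. For day 6 in CD8 TRAV19 was at −0.0021 undivided and −0.014 with liver alone. Without single libraries the usage ranges that crossed 0 were −0.080 to 0.19 (TRAV19, CD4) and −0.053 to 0.16 (TRAV19, CD8) for STAT3ko minus WT, −0.30 to 0.036 (TRAV17, CD8) for STAT3koPD-1ko minus STAT3ko and −0.14 to 0.29 (TRAV19, CD8) for day 6. Those of the mean TRAJ number were −1.55 to 0.49 (TRAV17, CD4), −0.42 to 0.29 (TRAV19, CD4) and −0.57 to 0.57 (TRAV19, CD8) for gut minus liver, and −0.36 to 1.40 (TRAV19, CD4) and −0.23 to 0.53 (TRAV17, CD8) for day 6.

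The replicate numbers were not used as a block in the text's fits, since not every same-numbered pair correlated over 0.1 and no source used here ties a number to a batch. Same-numbered deviations had r from −0.17 to 0.57 in CD4 (11 of 15 pairs over 0.1) and from −0.016 to 0.61 in CD8 (12 of 15). Between liver and gut of the same genotype, r was 0.17 to 0.24 in CD4 and 0.087 to 0.22 in CD8. With the replicate block the counts for gut minus liver were 9 in CD4 and 4 in CD8, and TRAV19 in CD4 was at 0.36 with an adjusted p of 0.0433. The reading frame alternative removed nothing, as 0 CDR3 sequences carried a stop or frameshift mark. Depth is unknown, and clonotypes found in 1 library alone are not listed, so small differences may be missed.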
